A study of Caenorhabditis elegans with 35 samples.

Results

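The nlp genes of C. elegans, which encode neuropeptide-like proteins, were followed in RNA-seq libraries of whole larvae of 7 genotypes. Members were every locus whose gene name, split on commas, held a symbol made of nlp- and a digit, which gave 41 of 37555 loci and 44 nlp genes. Of these loci 33 had at least 1 sequenced fragment, 26 were above 0 in at least 5 libraries and 12 passed the filter of the statistical test. Only the 26 are described. The members were kept apart in 2 classes. The epidermal class held nlp-24 to nlp-34, which made up 8 loci with 11 genes, and all other nlp genes, called non-epidermal here, made up 33 loci. Most of these genes are known from neurons.

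Of the strains with a further mutation in the eak-7;akt-1 background, daf-16;eak-7;akt-1 was mutant for a FoxO transcription factor and eak-7;akt-1;daf-12 for a nuclear hormone receptor. The strain eak-7;akt-1 dpy-21 was mutant for a gene of X chromosome dosage compensation. The last pair carried either of 2 alleles of the histone methyltransferase gene set-4, as set-4(n4600);eak-7;akt-1 or its counterpart, set-4(dp268);eak-7;akt-1. These strains are named below by their added mutation. They were set against the eak-7;akt-1 double mutant, which all 5 shared as background, and the double mutant was set against wild type. Each genotype had 5 libraries, numbered 6 to 10 in the titles, and values are given in this order. Eggs laid over 6 h at 20°C were moved to 25°C, a temperature that favours dauer arrest, and larvae were collected 24 h later at the L2 or L2D stage. The labels give alleles for set-4 only, and RNA came from pooled whole larvae.

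A nlp gene encodes a precursor that is cut into short peptides, and the family is set apart from the insulin-like peptides and the FMRFamide-related peptides of the flp genes. Most neuronal precursors are cut in dense core vesicles by the convertase EGL-3 and the carboxypeptidase EGL-21, and the released peptides act on G protein-coupled receptors. Several nlp peptides of the epidermis are rich in glycine and aromatic residues, act in innate defence and are induced by fungal infection and wounding through a p38 MAP kinase pathway, as was worked out for nlp-29. Dauer is an alternative larval stage with a remodelled cuticle, entered when insulin-like signaling is low.

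Values are scaled counts, the fragments of a locus in a library divided by a size factor for that library. The deposited counts of a library added up to between 34193 and 88068 fragments, with a median of 56780. These totals need not equal the number sequenced. In a library 1 fragment was worth between 0.669 and 1.43 scaled counts. At these totals a locus with no or few fragments cannot be called silent. No library had a fragment under the names eef-1A.1 or pmp-3, genes that every cell uses. Whether a locus carries each of these names was not checked. A value of 0 may be a failed estimate. No library held more than 3 fragments of a gene mutated in these strains, so the genotypes could not be checked from them. On the first principal component of the 1101 tested loci, which took 40.2% of the variance, 9 libraries stood apart from the other 26. They were wild type 7 and 10, double mutant 6 and 10, daf-16 10, daf-12 7, dpy-21 6 and 9, and set-4(n4600) 7. What sets them apart was not tested. Test outcomes that changed without them are given both ways.

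Both classes were uneven in level. The nlp loci together took between 2.17% and 3.94% of the deposited fragments of a library. The epidermal class alone took 1.78% ± 0.384 in daf-16, 1.80% ± 0.329 in daf-12, 1.37% ± 0.163 in dpy-21, 1.26% ± 0.0923 in set-4(n4600), 1.35% ± 0.2001 in set-4(dp268), 1.44% ± 0.326 in the double mutant and 2.08% ± 0.598 in wild type (mean ± SD, n = 5 each). These shares include the nlp-29/nlp-30/nlp-31 locus, which was listed at 0 in 6 libraries, none of them of set-4(dp268). Shares without that locus or without the libraries that stand apart are not given. Per 100 nt of the longest transcript, nlp-36 had a mean of 119 scaled counts and nlp-34 of 114, far above the 4.02 of nlp-41, the 2.51 of nlp-25, the 1.89 of nlp-46 and the 1.34 of nlp-32. Loci shared with other genes cannot be placed on this scale. Genes of tested loci had a median transcript of 383.5 nt (n = 14), and those of other loci 622 nt (n = 26).

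A locus was called when the fold change of scaled count + 1 was at least 1.5 and the adjusted p-value of limma, with Benjamini-Hochberg adjustment over all 1101 tested loci of a comparison, was below 0.05. The 12 tested nlp loci gave 13 calls over 6 comparisons. nlp-25 and the shared nlp-27/nlp-28 locus passed in 4 comparisons each, nlp-33 in 3, and nlp-26 and nlp-36 in 1 each. In daf-16, 3 of 12 loci were called, against 10.4% of all tested loci. In daf-12 the count was 4 of 12, against 9.99%. In dpy-21 it was 3 of 12, against 12.3%. Neither set-4 strain had a called nlp locus, and 0.182% of all loci were called in set-4(n4600) and 0.545% in set-4(dp268). Between wild type and the double mutant, 3 of 12 were called, against 13% of all loci. These shares rest on few loci, and the comparisons share the double mutant libraries. At an unadjusted p-value below 0.05, limma gave 0 of 12 loci in set-4(n4600), against 5.09% of all loci, and 1 of 12 in set-4(dp268), against 7.36%. No nlp locus was called in either by edgeR or DESeq2. Counted by libraries alone, the groups did not overlap at 3 of 12 loci in daf-16 (9.54% of all loci), 5 in daf-12 (10.6%), 5 in dpy-21 (10.5%), 0 in set-4(n4600) (0.999%), 0 in set-4(dp268) (2.27%) and 4 between wild type and the double mutant (11.6%).

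A moderated F test in limma over the 7 genotypes called 6 of 12 nlp loci, against 22.2% of all tested loci. They were nlp-25, nlp-33, nlp-34, nlp-26 and nlp-27/nlp-28 of the epidermal class, and nlp-36 among the 5 tested non-epidermal loci. The median log2 fold change of the 7 epidermal loci was -0.32 in daf-16, 0.03 in daf-12 and -0.65 in dpy-21, beside -0.05, -0.08 and -0.20 over all tested loci, and members had fold changes of both signs. It was -0.14 in set-4(n4600), 0.01 in set-4(dp268) and 0.30 for wild type over the double mutant, beside -0.01, 0.06 and -0.19 over all tested loci. Each of these epidermal medians is the value of a single locus. In daf-16 that locus was nlp-29/nlp-30/nlp-31 (SE 1.91), and for wild type it was nlp-32 (SE 0.82). Both were listed at 0 in some libraries, so these medians do not show a shift of the class. Over the 5 non-epidermal loci the medians were -0.08 in daf-16, -0.31 in daf-12, -0.35 in dpy-21, -0.04 in set-4(n4600), -0.0044 in set-4(dp268) and -0.31 for wild type over the double mutant.

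**Figure D1:**
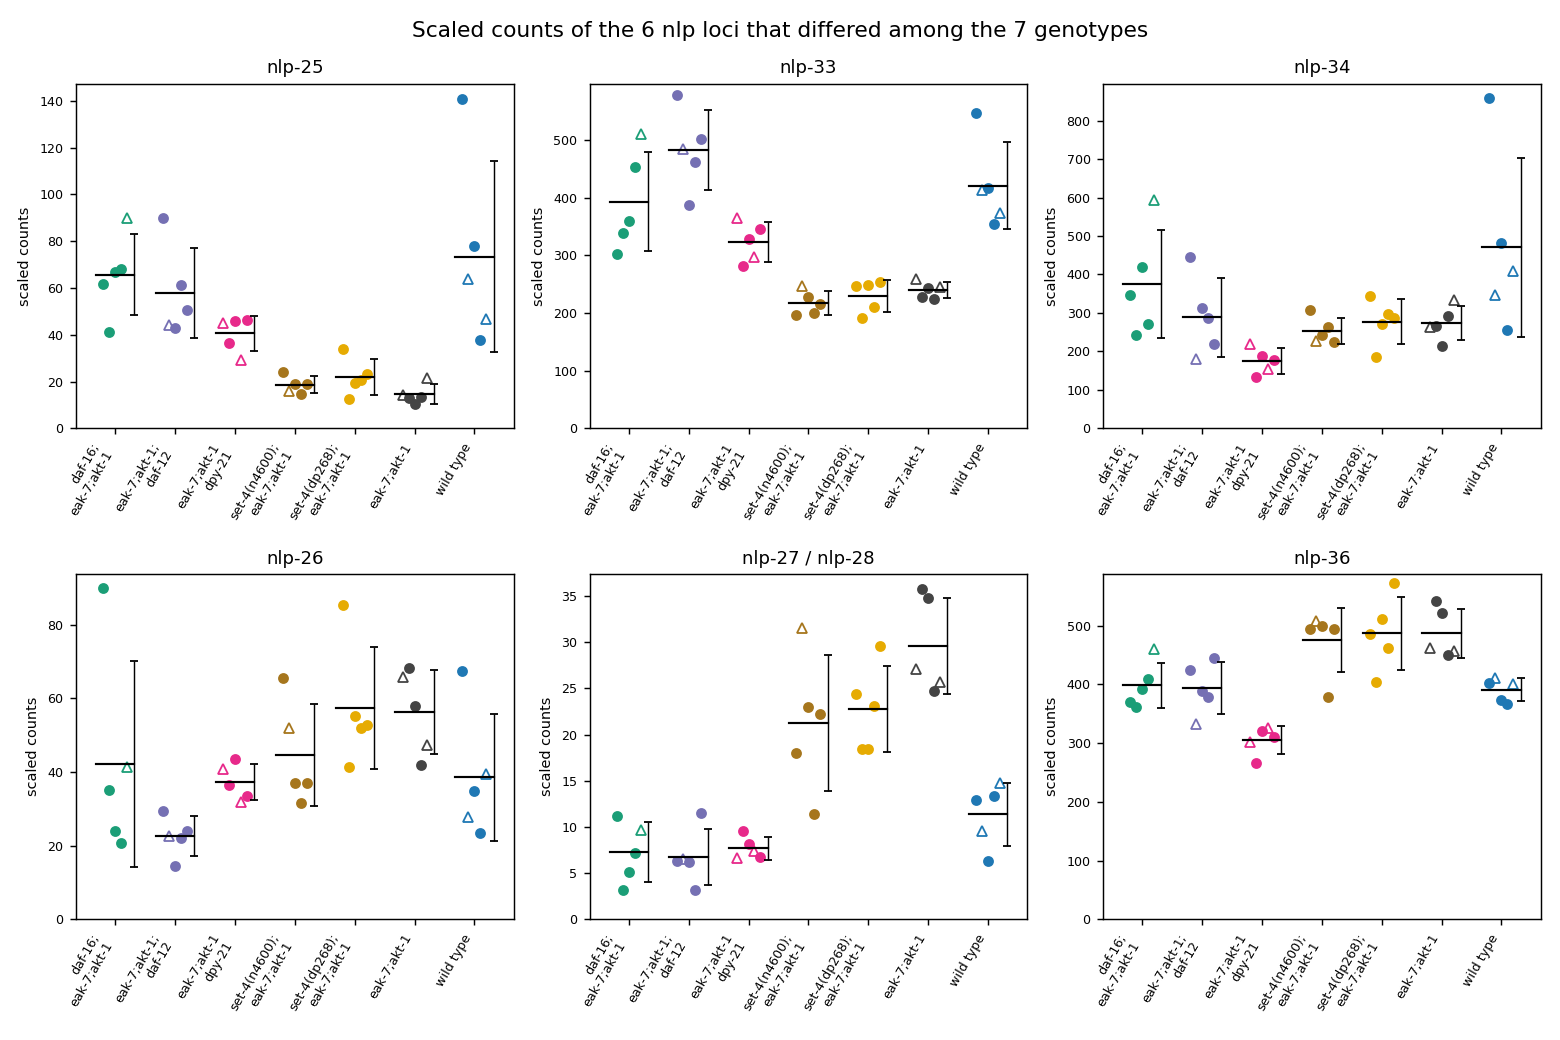
Scaled counts (linear axes from 0) of the 6 nlp loci that differed among the 7 genotypes by the F test, with 1 symbol a library, a line at the mean and a bar of 1 SD (n = 5). Open triangles mark the 9 libraries that stand apart on the first principal component. nlp-25 averaged 14.5 in the double mutant and 73.4 in wild type, while nlp-27/nlp-28 averaged 29.6 in the double mutant and 11.4 in wild type.

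nlp-25, a gene of the epidermal class, had the largest rise of the family that passed the test. It lies on chromosome V at 19606180 to 19608419 on the plus strand (WBcel235), with 2 exons. Its scaled counts were 61.8, 41.3, 66.6, 68.3 and 89.8 in daf-16, against 14.3, 12.99, 10.4, 13.3 and 21.7 in the double mutant. They were 89.9, 44.1, 43.1, 61.2 and 50.8 in daf-12, and 45.1, 36.4, 45.9, 29.4 and 46.2 in dpy-21. None of these 15 libraries overlapped the double mutant. The 5 wild type libraries, at 141, 63.9, 77.8, 37.6 and 46.8, did not overlap it either.

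Against the double mutant nlp-25 rose by a log2 fold change of 2.095 ± 0.279 (SE, limma, adjusted p = 1.64e-06) in daf-16. It rose by 1.90 ± 0.28 in daf-12 (limma, adjusted p = 6.40e-06) and by 1.44 ± 0.28 in dpy-21 (limma, adjusted p = 0.000445). The fold change of wild type over the double mutant was 2.14 ± 0.28 (limma, adjusted p = 7.49e-07), so nlp-25 was lower in the double mutant. In the set-4 strains the values lay close to those of the double mutant, at 24.3, 16.2, 19.2, 14.9 and 19.1 in set-4(n4600) and 34.1, 12.6, 19.5, 20.8 and 23.2 in set-4(dp268). Both sets overlapped the double mutant, with log2 fold changes of 0.36 ± 0.28 and 0.54 ± 0.28 that did not pass the test.

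nlp-33 was likewise higher in daf-16, daf-12 and wild type than in the double mutant. The gene lies on chromosome V at 11147346 to 11147737 on the plus strand, in a locus shared with T19C4.1, so its reads cannot be told from those of the neighbour. Scaled counts were 303, 338, 359.7, 454 and 511 in daf-16, against 258, 227, 244, 225 and 246 in the double mutant. They were 578, 485, 387, 461 and 501 in daf-12, and 365, 281, 328, 298 and 345 in dpy-21. All 15 libraries exceeded the highest library of the double mutant. Wild type, at 547, 414, 416, 355 and 373, exceeded it too.

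nlp-33 rose by a log2 fold change of 0.69 ± 0.13 in daf-16 (limma, adjusted p = 0.000261) and by 0.995 ± 0.130 in daf-12 (limma, adjusted p = 1.20e-06). In daf-16 the fold change was under 1.5 when replicate 10, the highest of its group, was left out (log2 fold change 0.58). In dpy-21 its fold change of 1.34 was under the threshold of 1.5 at an adjusted p of 0.0242 from limma. It passed when libraries were rescaled by the median of ratios (0.70 on the log2 scale), by TMM (0.73), in edgeR (0.73) and in DESeq2 (0.70). The fold change of wild type over the double mutant was 0.79 ± 0.13 on the log2 scale (limma, adjusted p = 3.31e-05). The set-4 values were 197, 247, 228, 200.3 and 215 in set-4(n4600), and 246, 191, 249, 210.1 and 254 in set-4(dp268), and both sets overlapped the double mutant.

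The shared nlp-27/nlp-28 locus moved the other way. Both genes lie on the plus strand of chromosome V, nlp-28 at 3987900 to 3988316 and nlp-27 at 3989378 to 3989770. They belong to the nlp-29 cluster, in which nlp-27 to nlp-31 and nlp-34 lie within 10946 bases. Scaled counts were 11.2, 3.18, 5.13, 7.19 and 9.69 in daf-16, against 27.1, 35.7, 34.8, 24.7 and 25.7 in the double mutant. They were 6.32, 6.56, 6.16, 3.17 and 11.5 in daf-12, and 6.60, 9.52, 8.19, 7.35 and 6.69 in dpy-21. Every one of these libraries was below the lowest library of the double mutant, as were the wild type libraries at 12.9, 9.58, 6.31, 13.4 and 14.8.

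nlp-27/nlp-28 fell by 1.97 ± 0.28 on the log2 scale in daf-16 (limma, adjusted p = 5.79e-06), by 2.05 ± 0.28 in daf-12 (limma, adjusted p = 2.34e-06) and by 1.81 ± 0.28 in dpy-21 (limma, adjusted p = 2.14e-05). The fold change of wild type over the double mutant was -1.34 ± 0.28 (limma, adjusted p = 0.000724), so the locus was higher in the double mutant. These rest on 36, 37 and 43 fragments over 5 libraries in daf-16, daf-12 and dpy-21, 134 in the double mutant and 56 in wild type. In set-4(n4600) scaled counts were 17.9, 31.5, 23.0, 11.4 and 22.3, and in set-4(dp268) 24.4, 18.4, 18.4, 23.1 and 29.6. Both overlapped the double mutant, with log2 fold changes of -0.52 ± 0.28 and -0.37 ± 0.28 that did not pass.

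nlp-26 fell in daf-12. It lies beside nlp-25 on the plus strand of chromosome V at 19613461 to 19614534, the pair spanning 8355 bases, and shares its locus with grsp-1. Its reads cannot be told from those of grsp-1. Scaled counts were 29.5, 22.5, 14.4, 22.2 and 24.0 in daf-12, against 65.6, 68.2, 58.0, 41.9 and 47.4 in the double mutant. The groups did not overlap, and the log2 fold change was -1.29 ± 0.29 (limma, adjusted p = 0.00237). No other comparison called it.

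The remaining nlp-26 values were 89.9, 35.0, 23.9, 20.7 and 41.4 in daf-16, 40.7, 36.4, 43.4, 31.9 and 33.5 in dpy-21, and 67.4, 27.7, 34.7, 23.4 and 39.4 in wild type. In daf-16 a single library, replicate 6, lay above all double mutant libraries, and without it the log2 fold change was -0.90 (limma, adjusted p = 0.0191), against -0.58 ± 0.29 with it. In the set-4 strains values were 65.5, 51.9, 37.1, 31.5 and 37.1 in set-4(n4600), and 85.4, 41.4, 55.2, 51.9 and 52.8 in set-4(dp268), which overlapped the double mutant. nlp-25 and nlp-26 are neighbours, and nlp-25 rose in daf-12 where the locus shared by nlp-26 and grsp-1 fell.

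nlp-34, the gene at the other end of the nlp-29 cluster, lies on the minus strand at 3978825 to 3979134. It differed among the 7 genotypes by the F test in limma (adjusted p = 0.00641), although none of the 6 comparisons called it. Scaled counts were 347, 244, 420.4, 271 and 593 in daf-16, 446, 180.0, 314, 286 and 220.4 in daf-12, and 220.1, 134, 188, 154 and 178 in dpy-21. They were 308, 228, 242, 262 and 225 in set-4(n4600), and 345, 185, 272, 298 and 287 in set-4(dp268). The double mutant had 264, 265, 213, 293 and 334, and wild type 859.5, 346, 481, 255 and 409.9. The lowest mean was that of dpy-21, at 175 ± 32.8, and the highest that of wild type, at 470.1 ± 233 (SD, n = 5 each), where replicate 6 stood far above the rest.

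The nlp-34 log2 fold change was -0.65 ± 0.26 in dpy-21 (limma, adjusted p = 0.0952). It passed when only dpy-21 and the double mutant were fitted (limma, adjusted p = 0.0274) and with the replicate number as a block (limma, adjusted p = 0.0333). It did not pass after either rescaling, in edgeR or in DESeq2. The nlp-34 log2 fold change of wild type over the double mutant was 0.67 ± 0.26 (limma, adjusted p = 0.0882). This one passed after rescaling by the median of ratios (0.81, adjusted p = 0.0146) or by TMM (0.82, adjusted p = 0.0145), in edgeR (0.90, adjusted p = 0.00843) and in DESeq2 (0.89, adjusted p = 0.00433). All 5 dpy-21 libraries were below all 5 wild type libraries (p = 0.00794 in a two-sided exact permutation test, which can give no smaller value with 5 libraries a group).

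The nlp-29/nlp-30/nlp-31 locus, which also carries the name str-83, holds the best known defence peptides of the cluster, on the plus strand from 3980055 (nlp-31) to 3984847 (nlp-29). Its scaled counts were 299, 161, 192, 158 and 0 in daf-16, 278, 0, 199, 117 and 143 in daf-12, and 187, 120.3, 94.2, 0 and 139 in dpy-21. They were 261, 0, 224, 205 and 214 in set-4(n4600), and 379, 175, 285, 244 and 258 in set-4(dp268). The double mutant had 0, 266, 216, 278 and 279, and wild type 443, 0, 169, 142 and 160.0. The locus was listed at 0 in 6 libraries and at 94.2 or more in the other 29.

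All 6 libraries at 0 were among the 9 that stand apart on the first principal component. With them the SE of each log2 fold change was 1.91 and no comparison was called. Without the 9 libraries the fold change in dpy-21 was -1.11 ± 0.33 on the log2 scale (limma, adjusted p = 0.0295), at 120.3, 94.2 and 139 in the 3 remaining dpy-21 libraries, against 266, 216 and 278 in the 3 remaining double mutant libraries. nlp-32, on chromosome III, had 0 fragments in all 9 libraries that stand apart and was at 0 in 1 more library. Without those 9 its fold change in dpy-21 was -2.14 ± 0.55 (limma, adjusted p = 0.00946). With all libraries the highest nlp-32 value in dpy-21 was 0.866, which is under 3 fragments, so that the fitted change depends on the pseudocount. A floor of 3 fragments a library in dpy-21 lay 1.73-fold below the nlp-32 mean of the double mutant, whose libraries ran from 0 to 15.2 and overlapped dpy-21. With all libraries the log2 fold change in dpy-21 was -1.28 ± 0.82 and did not pass (limma, adjusted p = 0.364). The exact permutation test of these 2 genotypes gave p = 0.175. nlp-24, the eighth locus of the class, had 0 fragments in every library.

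**Figure D2:**
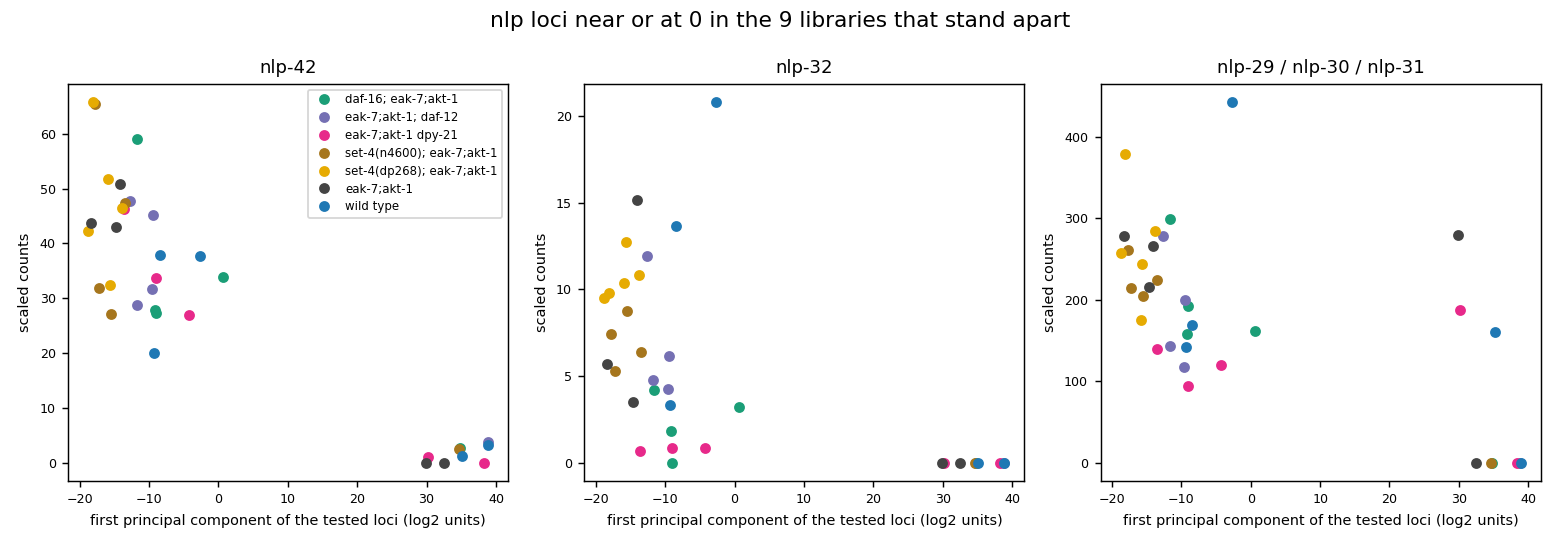
Scaled counts of nlp-42, nlp-32 and nlp-29/nlp-30/nlp-31 in each of the 35 libraries (points, coloured by genotype) against the score on the first principal component of the tested loci, in log2 units. The 9 libraries on the right had nlp-42 at 3.75 or less and nlp-32 at 0, and 6 of them had nlp-29/nlp-30/nlp-31 at 0.

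Since the scaled counts of all loci in a library share a size factor, ratios of 2 loci within a library do not depend on it. The pairs were chosen after the values were seen, and no test is given. The ratio of nlp-25 to nlp-27/nlp-28 ran from 5.50 to 13 in daf-16, from 4.42 to 19.3 in daf-12, from 3.82 to 6.90 in dpy-21, from 0.514 to 1.35 in set-4(n4600) and from 0.688 to 1.40 in set-4(dp268). It ran from 0.300 to 0.846 in the double mutant and from 2.81 to 12.3 in wild type. Every library of daf-16, daf-12, dpy-21 and wild type had a higher ratio than every library of the double mutant and of both set-4 strains.

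nlp-33 over nlp-36 sorted the genotypes in the same way, from 0.818 to 1.11 in daf-16, from 0.997 to 1.46 in daf-12, from 0.914 to 1.21 in dpy-21, from 0.400 to 0.529 in set-4(n4600) and from 0.445 to 0.508 in set-4(dp268). It was between 0.419 and 0.559 in the double mutant and between 0.929 and 1.36 in wild type. No library of the first 3 strains or of wild type came below 0.818, and none of the others above 0.559.

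**Figure D3:**
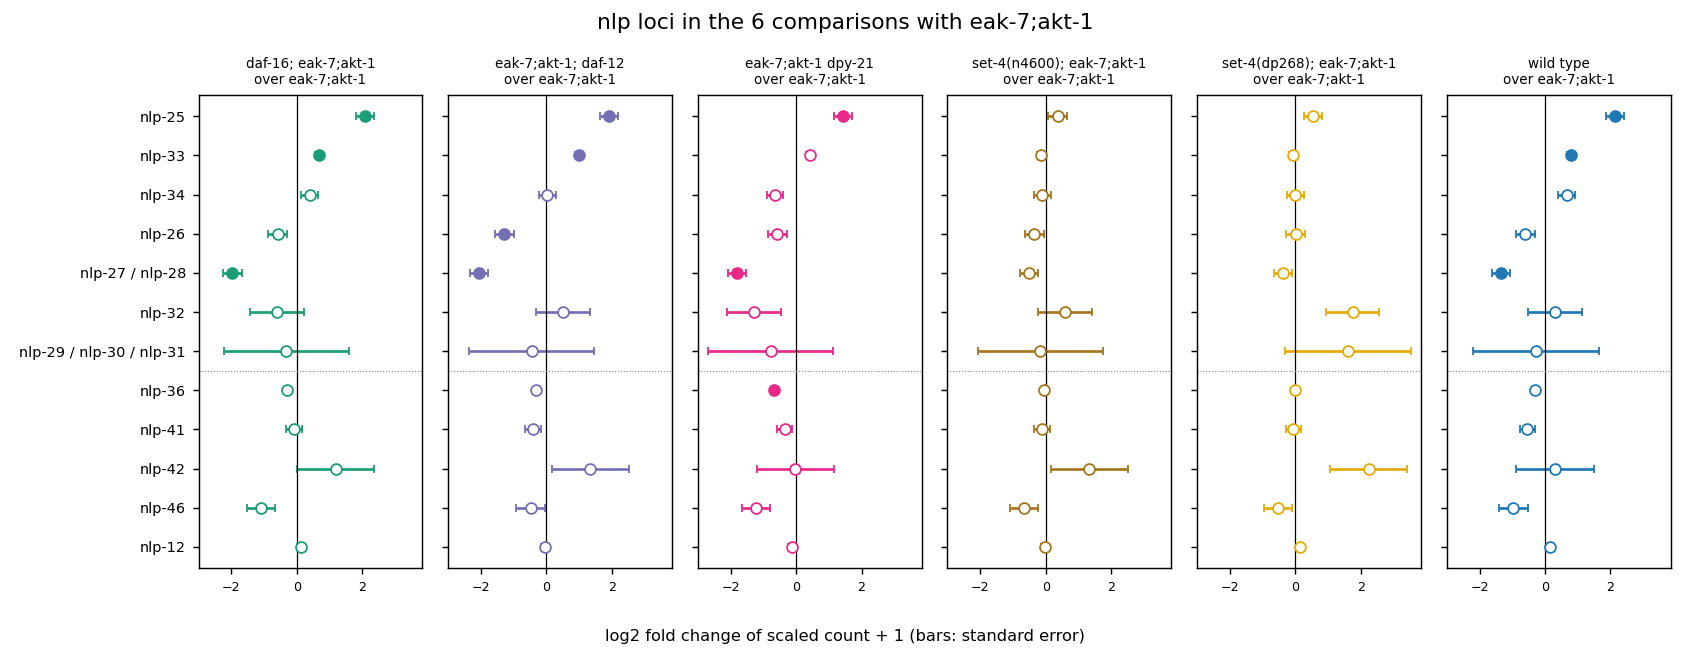
Log2 fold changes of scaled count + 1 over the double mutant for the 12 tested nlp loci (rows) in the 6 comparisons (panels), with the standard error as bars. Filled points were called, and the dotted line parts the epidermal loci (above) from the non-epidermal loci (below). The nlp-12 row is a locus shared with 6 other genes. nlp-25 and nlp-27/nlp-28 are called on opposite sides of 0 in 4 panels, and the 2 set-4 panels hold no filled point.

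Some epidermis markers were called higher in daf-16, daf-12 and wild type over the double mutant, as nlp-25 and nlp-33 were. In dpy-21, where nlp-25 was called too, no marker was. The list held 14 genes, mostly cuticle collagens, at 15 loci, of which 10 had any fragment, 3 were tested and 5, among them bli-1 and bli-2, were at 0 in every library. Their summed scaled counts per library ran from 8.42 to 24.3 in daf-16, from 19.7 to 34.4 in daf-12, from 7.36 to 11.01 in dpy-21, from 3.41 to 14.0 in set-4(n4600) and from 1.08 to 10.4 in set-4(dp268). They ran from 1.16 to 14.3 in the double mutant and from 8.35 to 25.2 in wild type. Of the 3 tested markers 2 were called higher in daf-16, 2 in daf-12, 2 in wild type over the double mutant and 0 in the other 3 comparisons. Of all 1101 tested loci, 46, 55 and 57 were called higher in daf-16, daf-12 and wild type over the double mutant. The tested markers were rol-6, sqt-3, in a locus shared with F23H12.5 and others, and lin-26, in a locus shared with lir-1, lir-2 and rpa-1. No marker locus exceeded 16 fragments in a library. The part of these genes in the nlp results was not tested. In whole animals, fewer cells of a type and less RNA per cell cannot be told apart.

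The caenacins, glycine-rich peptides of the same defence response encoded by the cnc genes, were called higher in none of the 6 comparisons. Of 10 loci 6 were tested. Called loci were lower, 2 of 6 in daf-16, 1 of 6 in daf-12, 3 of 6 in dpy-21, 0 of 6 in each set-4 strain, and 2 of 6 in wild type over the double mutant. Of all 1101 tested loci, 69, 55, 97, 2, 3 and 86 were called lower in daf-16, daf-12, dpy-21, set-4(n4600), set-4(dp268) and wild type. Called higher were 46, 55, 38, 0, 3 and 57 in the same order. cnc-2 fell by 1.89 ± 0.38 on the log2 scale in dpy-21 (limma, adjusted p = 0.000818). cnc-8 fell by 0.94 ± 0.17 in daf-12 (limma, adjusted p = 0.000153), and its fold change of wild type over the double mutant was -0.78 ± 0.17 (limma, adjusted p = 0.00124). The median log2 fold changes of the 6 loci were -0.61 in daf-16, -1.01 in daf-12, -1.45 in dpy-21, -0.15 in set-4(n4600), 0.02 in set-4(dp268) and -1.16 for wild type over the double mutant. Median and sum differed in sign in dpy-21, where the cnc loci together ran from 670.2 to 820 scaled counts, with a mean of 736, against 575 to 688, with a mean of 659, in the double mutant. cnc-10 had a log2 fold change of 0.41 ± 0.15 there, which did not pass (limma, adjusted p = 0.0672). The mean sum was 569.9 in daf-16, 631 in daf-12, 632 in set-4(n4600), 679 in set-4(dp268) and 574 in wild type. None of the 19 loci of the p38 and TGFβ pathways that control these peptides, such as dcar-1, tir-1, pmk-1, sta-2 and dbl-1, had enough fragments to be tested, with at most 6 in any library.

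Among the non-epidermal genes only nlp-36 was called. The gene lies on chromosome III at 9488731 to 9489186 on the plus strand and had the highest mean of the family, at 420 scaled counts. Scaled counts were 303, 266, 320.4, 326 and 311 in dpy-21, against 462, 542, 522, 451 and 457 in the double mutant. In scaled counts as deposited the groups did not overlap, and the log2 fold change was -0.67 ± 0.10 (limma, adjusted p = 1.06e-05). The call depended on the scaling. The fold change was under 1.5 after rescaling by the median of ratios (-0.40 on the log2 scale) or TMM (-0.37), and in edgeR (-0.37) and DESeq2 (-0.40), all with adjusted p-values of 0.00108 or less, while these rescalings moved the median of all tested loci in dpy-21 to 0.02 and 0.04, beside -0.20 as deposited.

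nlp-36 was 371, 362, 392, 409 and 459.6 in daf-16, 425, 333, 388, 379 and 446 in daf-12, and 403, 411, 373, 367 and 401 in wild type. In daf-12 its log2 fold change was -0.31 (limma, adjusted p = 0.0400), and that of wild type over the double mutant was -0.31 (limma, adjusted p = 0.0286), both under 1.5-fold. In scaled counts as deposited, all 5 dpy-21 libraries were also below all 5 wild type libraries (p = 0.00794 in the same exact permutation test). As a share of all fragments in a library the groups overlapped. dpy-21 replicate 9 had 266 of 34193 fragments at nlp-36, a larger share than the 406 of 69856 in wild type replicate 6. That share was also larger than the 474 of 67427 in double mutant replicate 9, so dpy-21 overlapped the double mutant on this scale too. The set-4(n4600) values were 494, 508, 500.3, 379 and 495 and the set-4(dp268) values 485, 405, 511, 463 and 572, which overlapped the double mutant. The summed scaled counts of neuron markers came mostly from the unc-18 locus shared with rte-3. These sums ran from 76.2 to 102 in dpy-21 and from 79.3 to 96.1 in set-4(dp268), against 52.3 to 70.7 in the double mutant. They ran from 62.3 to 85.7 in set-4(n4600), from 44.9 to 66.0 in daf-16 and from 11.3 to 71.9 in daf-12. In wild type they ran from 37.3 to 64.3. Of the 11 neuron marker loci 9 had any fragment, 3 were tested, rgef-1 and cpx-1 were at 0, and none of the 3 was called.

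nlp-42 showed the split of the libraries most plainly. Its scaled counts were 59.0, 33.9, 27.3, 27.9 and 2.64 in daf-16, 47.7, 3.75, 45.2, 31.7 and 28.8 in daf-12, and 1.10, 26.8, 33.6, 0 and 46.2 in dpy-21. They were 65.5, 2.55, 47.3, 27.1 and 31.8 in set-4(n4600), and 65.9, 51.7, 46.5, 32.3 and 42.2 in set-4(dp268). The double mutant had 0, 50.9, 42.9, 43.8 and 0, and wild type 37.7, 3.19, 37.9, 20.0 and 1.23. The 9 libraries that stand apart were at 3.75 or less, and the other 26 at 20.0 or more, whatever the genotype. nlp-42 was called in no comparison, with or without the 9 libraries.

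The nlp-12 gene, whose peptide resembles cholecystokinin and is made by the DVA neuron, lies on chromosome I in a locus with 6 other genes, among them rpl-27, a ribosomal protein gene, and egl-30, so its level cannot be read as that of nlp-12. Scaled counts of the locus were 191, 134, 133, 149 and 168 in daf-16, 142, 139.7, 125, 125 and 155 in daf-12, and 149.7, 120.3, 123, 129 and 137 in dpy-21. They were 141, 154, 159, 101 and 148 in set-4(n4600), and 169.5, 137, 167, 133 and 177 in set-4(dp268). The double mutant had 141, 147, 144, 129 and 148, and wild type 164, 148, 144, 153 and 185. All strains overlapped the double mutant and no comparison was called.

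The last tested non-epidermal genes were of low level. nlp-41, on chromosome II, ran from 6.39 to 25.7 scaled counts over all libraries, and its log2 fold changes lay between -0.40 and -0.06 in the 5 strains. nlp-46, on chromosome V, was 6.60, 6.06, 3.28, 2.45 and 7.36 in dpy-21, against 12.8, 20.6, 12.8, 10.5 and 8.89 in the double mutant. The nlp-46 groups did not overlap, but the log2 fold change of -1.23 ± 0.43 did not pass (limma, adjusted p = 0.0568). In limma it passed with a pseudocount of 5 (adjusted p = 0.0330) and with a stricter filter of 10 scaled counts (adjusted p = 0.0416). The nlp-46 values were 9.83, 10.6, 2.56, 11.7 and 0.880 in daf-16, 5.62, 13.1, 7.19, 13.7 and 6.71 in daf-12, and 7.93, 2.13, 5.26, 15.03 and 4.92 in wild type. They were 8.45, 10.2, 7.68, 6.12 and 6.36 in set-4(n4600), and 12.2, 6.90, 10.8, 4.62 and 9.50 in set-4(dp268), and each of these 5 sets overlapped the double mutant.

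Exact permutation tests set each strain against wild type at the 12 tested loci, which made 60 tests with unadjusted p-values. nlp-25 was lower than wild type in set-4(n4600) and in set-4(dp268) without overlap (p = 0.00794 each, exact permutation test), and so was nlp-33 (p = 0.00794 each). nlp-27/nlp-28 was higher than wild type in set-4(dp268) without overlap (p = 0.00794), and in set-4(n4600) 4 of 5 libraries were above all wild type libraries (p = 0.0317). Over all tested loci the libraries did not overlap those of wild type for 9.17% in set-4(n4600) and 12.9% in set-4(dp268), against 1.91% in daf-16, 2.82% in daf-12 and 7.99% in dpy-21.

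For daf-16 and daf-12 against wild type, nlp-25 gave p = 0.881 and 0.571 and nlp-33 gave p = 0.563 and 0.206 in exact permutation tests, with overlapping libraries. nlp-27/nlp-28 was at p = 0.0952 in daf-16 and 0.0635 in daf-12. The dpy-21 strain was at an exact permutation p = 0.0556 for nlp-25 and 0.0159 for nlp-33, whose mean was 324 in dpy-21 and 421 in wild type. A p-value above 0.05 does not show that the genotypes were alike. The alleles of set-4 were also compared with each other, and none of the 12 nlp loci was called in limma, where the smallest adjusted p was 0.937 and 2 of 1101 loci were called. At an unadjusted p below 0.05 limma gave 53 of all loci, none of them nlp.

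The other 14 nlp loci above 0 in at least 5 libraries were all non-epidermal and under the filter. nlp-19, in a locus shared with pbo-4, was above 0 in 34 libraries with at most 7 fragments in any, while nlp-17 had 85 fragments over the 35 libraries and nlp-35 had 71. The rest ranged from 37 for nlp-10 down to 6 for nlp-9. They include nlp-40, whose peptide is secreted by the intestine and times defecation, with 11 fragments, and nlp-3 and nlp-6 on the X chromosome with 28 each. Apart from nlp-20 and the X-linked nlp-6, nlp-19 and nlp-3, no comparison of these loci between genotypes is given.

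**Figure D4:**
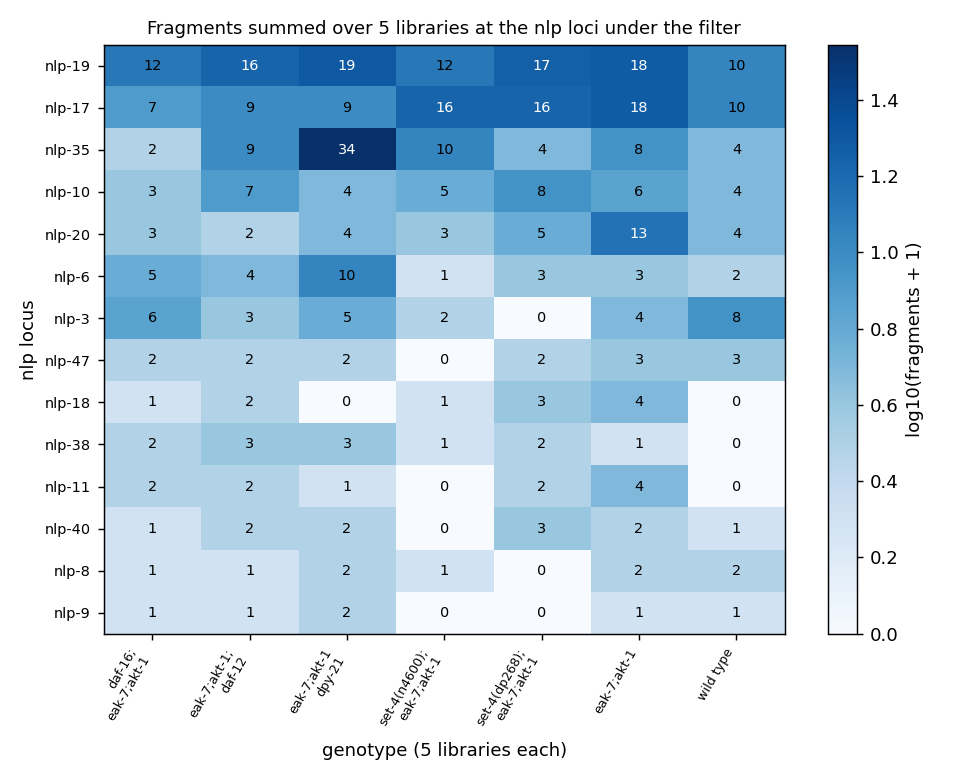
Fragments summed over the 5 libraries of each genotype (columns) at the 14 nlp loci above 0 in at least 5 libraries that were under the filter (rows), with shading on a log10 scale of fragments + 1. Most sums are under 10, nlp-20 has 13 in the double mutant and 2 to 5 elsewhere, and the 34 of nlp-35 in dpy-21 come mainly from 1 library.

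The nlp-20 locus is shared with nep-16 and 21ur-12277. It had 0, 0, 1, 1 and 1 fragments in daf-16, 1, 0, 0, 1 and 0 in daf-12, 2, 0, 0, 0 and 2 in dpy-21, 1, 2, 0, 0 and 0 in set-4(n4600) and 1, 0, 1, 3 and 0 in set-4(dp268). The double mutant had 1, 3, 3, 3 and 3 and wild type 1, 0, 1, 0 and 2. The sums were 3, 2, 4, 3 and 5 in the 5 strains, against 13 in the double mutant and 4 in wild type, and no fold is given because all genotypes were at or under 3 fragments a library. In a limma fit of the 4569 loci above 0 in at least 5 libraries, nlp-20 was called in daf-12 (adjusted p = 0.0446), as were 2.82% of the loci of that fit, and in no other comparison. The F test of the same fit did not call it (limma, adjusted p = 0.231), and all its comparisons share the double mutant libraries.

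Of the 9 nlp genes placed on the X chromosome none passed the filter, although dpy-21 acts in dosage compensation of that chromosome. The genes nlp-37, nlp-38 and nlp-42 were not placed on any chromosome. nlp-6, on X, had 10 fragments in dpy-21, against 3 in the double mutant (limma in the fit of 4569 loci, adjusted p = 0.402). The other loci placed on X and above 0 in at least 5 libraries differed less. nlp-19 had 19 fragments in dpy-21 against 18, and nlp-3 had 5 against 4 (limma in the same fit, adjusted p = 0.987 and 0.962). In the other neuropeptide family, 19 of 31 flp loci had any fragment, 12 were above 0 in at least 5 libraries and none was tested. Of the 33 non-epidermal nlp loci the counts were 26, 19 and 5. The difference was not tested. No locus of peptide processing and release, such as egl-3, egl-21 and unc-31, exceeded 4 fragments in a library, and no neuropeptide receptor exceeded 5.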

How the data were processed

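Per the submitters' processing notes, reads were trimmed with cutadapt, aligned with TopHat2 2.0.9 and Bowtie2 2.1.0 to WBcel235 and quantified with Cufflinks and Cuffdiff 2.1.1, while the paper's methods name another CuffDiff version and build. The deposited signal is a fragment count per locus, divided by the authors by a size factor of the library. Fragments were recovered as whole multiples of a step (tolerance 0.1 fragments), which held for 100% of values in every library. Loci may join neighbouring genes, and no strand setting is given in the sources used here. Paired-end reads carried no molecular identifiers, so floors cover counting error only.

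The test was limma (version 3.58.1, R 4.3.3), fitted with a mean-variance trend to log2 values of scaled count + 1 over all 35 libraries, without covariates. It took loci that reached 5 scaled counts in 5 or more libraries. The log scale understates changes of low loci. Single loci were also compared by exact permutation over libraries in Python 3.11.15. The study describes the libraries of a genotype as biological replicates, each of pooled progeny, and the labels do not say whether they came from separate cultures.

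Alternatives were pseudocounts of 0.5 and 5, other filters, rescaling by the median of ratios or TMM, limma without a trend, count models of the recovered fragments in edgeR 4.0.16 and in DESeq2 1.42.0, fits of 2 genotypes, a replicate block, the 9 libraries that stand apart left out, and each library left out. Values in every library are given for nlp loci called in any comparison or by the F test and for the 3 loci of highest mean in each class. Other loci with values in every library, nlp-46 and nlp-20, were chosen after their values were seen, and so were ratios within a library. The members and gene lists were chosen with earlier results of these data known. Of the 44 nlp genes, 40 were placed by name in the WBcel235 annotation and 1 in a RefSeq table, and 3, nlp-37, nlp-38 and nlp-42, were not placed.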

Additional observations from a re-analysis of the deposited data

Results flagged for a closer look

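In 3 of 84 sets of 5 libraries of a genotype at a tested nlp locus, 1 library lay far from the other 4, while chance alone gives about 1 in 20. nlp-36 was at 378.7 scaled counts in set-4(n4600) replicate 9, below the other 4 at 494.1 to 508. nlp-29/nlp-30/nlp-31 was listed at 0 in set-4(n4600) replicate 7, against 205 to 261 in the other 4, and at 0 in double mutant replicate 6, against 216 to 279. The last 2 libraries are among the 9 that stand apart on the first principal component, and the part of that split in these values was not tested.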

How the results depend on the processing

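All 13 calls kept their direction under the alternatives run, and 281 of 286 alternative values stayed past the threshold. The exceptions were nlp-36 in dpy-21 under the 4 other scalings or count models and nlp-33 in daf-16 without its replicate 10, as given above. The count of called nlp loci in dpy-21 was 5 rather than 3 when only the 2 genotypes were fitted, with nlp-34 and nlp-46 added, and also 5 without the 9 libraries that stand apart, with nlp-29/nlp-30/nlp-31 and nlp-32 added, and the cause was not tested. Leaving out 1 library at a time gave 2 to 4 called loci in daf-16, 4 to 4 in daf-12, 3 to 4 in dpy-21, 0 to 0 in each set-4 strain, 3 to 4 between wild type and the double mutant, and 6 to 7 by the F test. Without wild type replicate 9 nlp-34 was called (0.86), and without dpy-21 replicate 10 nlp-46 was called (-1.36). With the replicate number as a block, the counts were 3, 4, 4, 0, 0, 4 and 6 in that order, with nlp-34 added in dpy-21 (limma, adjusted p = 0.0333) and between wild type and the double mutant (limma, adjusted p = 0.0272). The main fit did not take the numbers to pair libraries, since the deviations of only 45 of 105 same-numbered pairs correlated above 0.1. These deviations still hold the split on the first principal component, so they cannot exclude that the numbers pair libraries. The median correlation was 0.034 over same-numbered and 0.016 over other pairs, and 11 of 35 libraries correlated best with their own number, where an even spread over the numbers gives 7. Of 59 changes that were not called, 7 were called under some alternative, and 93 of 1298 alternative values had another sign. Rescaling moved the median of all tested loci by more than 0.1 on the log2 scale in dpy-21, daf-12 and wild type, to 0.02, 0.07 and -0.06 by the median of ratios, beside -0.20, -0.08 and -0.19 as deposited. It moved the split of called loci in dpy-21 to 58 higher and 46 lower, beside 38 and 97. Depth limits every nlp gene under the filter.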

Other observations

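In dpy-21 replicate 10, nlp-35 had 31 fragments, while no other library had more than 5 and the other 34 together had 40. The same library had 140 fragments of flp-26, a gene of FMRFamide-related peptides, while the other 34 libraries had 4 in all and no more than 1 each. These values come from 1 library, and the cause was not tested.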
